A study of Homo sapiens with 24 samples.

Results

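MYC, MYCN, MAX, MXD1, MXD3, MXD4, MXI1 and MNT are the core of the MYC and MAX network of transcription factors. The 8 genes were taken by name from gene count tables of 57820 genes, and each was counted in all 24 RNA-seq libraries of a study on ID3 and the histone deacetylase (HDAC) inhibitor mocetinostat. In wild-type (WT) AID-DIvA cells that had recovered from mocetinostat, MYC was 2.69-fold higher than in untreated cells, MXD3 was 2.07-fold lower and MYCN was 2.73-fold lower. In WT U2OS cells treated with the drug, MYC was 1.35-fold higher, MAX and MXI1 were 1.51-fold and 1.36-fold higher, and MXD3, MXD4, MNT and MYCN were all lower. The direction was the same for MYC, MAX, MXD3 and MYCN in WT and ID3-knockout (ID3-KO) cells.

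The libraries formed 8 groups of 3 biological replicates. AID-DIvA cells are U2OS cells, a human osteosarcoma line, that carry an inducible AsiSI restriction enzyme for cutting DNA. WT and ID3-KO AID-DIvA cells were either untreated or exposed to mocetinostat for 24 h and then grown for 24 h without it (recovered). WT and ID3-KO cells labelled U2OS were either untreated or treated with mocetinostat, and are taken as collected after 24 h of treatment, before any recovery. The dose used for these libraries was not stated in the sources, nor whether the ID3-KO cells were 1 clone. For AID-DIvA, titles and the treatment entry of the labels contradict each other. The titles were followed, and every AID-DIvA treatment direction given here would turn around if that entry were right. The library names of the U2OS samples also carry the word DivA. Cell line label and sampling stage change together and cannot be told apart.

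MYC and MYCN bind DNA as dimers with MAX, mostly at the E-box CACGTG, and activate genes for ribosome production, translation and growth. MXD1, MXD3, MXD4, MXI1 (also called MXD2) and MNT compete for MAX at the same sites and repress those genes by bringing in SIN3 corepressors with their HDAC enzymes, the class of enzyme that mocetinostat inhibits. MXD proteins are best known from differentiating or resting cells, and MXD3 from proliferating ones. ID3 belongs to a separate family of helix-loop-helix proteins that lack a DNA-binding region and hold other factors off DNA.

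Total counts per library ran from 37878751 to 76906266, with a median of 56215341. Levels are CPM, counts per 1000000 counts of a library after scaling for composition, and levels of different genes are set side by side only as CPM per kilobase of exon. ID3 was present at 48.7 to 79.7 CPM in the untreated WT libraries and at 29.1 to 38.8 CPM in the untreated ID3-KO libraries, with no overlap. The recovered ID3-KO AID-DIvA libraries (61.5 to 67.1 CPM) were above the untreated WT ones of that line (48.7 to 52.3 CPM). These are RNA levels, and the authors checked the knockout by Western blot of ID3 protein, which RNA counts do not measure. The osteosarcoma label matched high COL1A1, SPARC and VIM (830 CPM or more for COL1A1 in every library) and RUNX2 at group means of 12.5 to 42.7 CPM. ALPL reached 6.04 CPM at most, while COL1A2 (1.24 CPM at most), SP7 and BGLAP were low or near 0, and the leukocyte marker PTPRC did not exceed 0.411 CPM. One library stood apart. U2OS WT untreated replicate 1 deviated from its group mates with an SD of 0.387 on the log2 scale over genes, against 0.0696 to 0.245 in the 21 libraries of the other groups. For members, calls and counts of calls that change without it are given both ways.

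Upstream sequences from RefSeq show where the E-box of this network occurs. The motif searched was CACGTG, which reads the same on both strands, in windows from 250 bases before to 50 bases after each gene start (GRCh38.p14). It was in 2548 of 35116 windows (7.26%). Of the 8 members, 7 had an entry in the table, and of these genes MXD4 and MNT held the motif (2 of 10 windows). Among 60 genes widely described as MYC targets, 49 had an entry, and 26 of these 49 (53.1%) held at least 1 match, against 8.77% of all genes with an entry. The stretches below are shown because they belong to the members that hold the E-box and to 4 target genes whose values are given later; capitals mark CACGTG, each is written 5′ to 3′ along its gene's strand, and positions are on GRCh37, the build of the count tables. MXD4 lies at chr4:2264027-2264086 (minus strand), MNT at chr17:2304515-2304574 (minus), HK2 at chr2:75062087-75062166 (plus), ODC1 at chr2:10588144-10588203 (minus), CDK4 at chr12:58146264-58146323 (minus) and LDHA at chr11:18415910-18415969 (plus).
MXD4: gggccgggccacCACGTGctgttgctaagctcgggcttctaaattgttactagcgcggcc
MNT: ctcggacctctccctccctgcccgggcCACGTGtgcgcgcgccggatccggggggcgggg
HK2: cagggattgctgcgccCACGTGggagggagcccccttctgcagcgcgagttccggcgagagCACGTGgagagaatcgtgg
ODC1: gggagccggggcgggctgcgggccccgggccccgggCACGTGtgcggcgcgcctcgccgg
CDK4: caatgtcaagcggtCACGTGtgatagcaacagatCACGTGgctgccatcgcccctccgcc
LDHA: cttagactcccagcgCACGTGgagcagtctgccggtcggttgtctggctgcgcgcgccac

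MYC (chromosome 8, 128747680 to 128753674, plus strand) was by far the most abundant member per kilobase. Its mean over the 24 libraries was 89.5 CPM per kilobase, followed by MAX at 17.8, MXI1 at 9.51, MXD3 at 5.49, MXD4 at 3.83, MNT at 3.13, MXD1 at 0.74 and MYCN at 0.544 CPM per kilobase. These levels use counts from either strand. Counting the reverse strand alone gave MNT 1.229 to 1.333 times that count, and MXD4 0.997 to 1.0 times. The order of MXD4 and MNT therefore depends on the strand counted. In WT AID-DIvA cells the MYC level was 208, 193 and 201 CPM untreated and 551, 508 and 537 CPM after recovery. In ID3-KO AID-DIvA cells it was 159, 152 and 159 CPM untreated and 572, 457 and 453 CPM recovered. Every recovered library was thus above every untreated one, by log2 differences of 1.43 (SE 0.0423, adjusted p = 3.9e-11) in WT and 1.65 (SE 0.0831, adjusted p = 7.3e-07) in ID3-KO cells (edgeR quasi-likelihood test, Benjamini-Hochberg adjustment over all genes tested, as in all comparisons here). These are bulk libraries, in which fewer cells of a type and less RNA per cell cannot be told apart.

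In treated U2OS cells the MYC difference was smaller. WT levels were 187, 168 and 171 CPM untreated and 242, 230 and 240 CPM treated, and ID3-KO levels were 144, 150 and 149 CPM untreated and 208, 192 and 199 CPM treated. The groups did not overlap in either genotype, and the log2 differences were 0.44 (SE 0.0766, adjusted p = 0.0023) in WT and 0.44 (SE 0.0438, adjusted p = 5.8e-09) in ID3-KO cells. Without WT untreated replicate 1 the WT difference was 0.49. Among all genes tested, the MYC response lay at the 97th and 97.5th percentile in WT and ID3-KO AID-DIvA cells, and at percentiles 72.1 and 72.6 in U2OS cells. Across the 8 groups the order from high to low was recovered WT, recovered ID3-KO, treated WT, untreated WT AID-DIvA, treated ID3-KO, untreated WT U2OS, untreated ID3-KO AID-DIvA and untreated ID3-KO U2OS. The ranges overlapped between the recovered WT and recovered ID3-KO groups, and between untreated WT AID-DIvA and treated ID3-KO U2OS cells. Other neighbours in this order did not overlap.

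**Figure D1:**
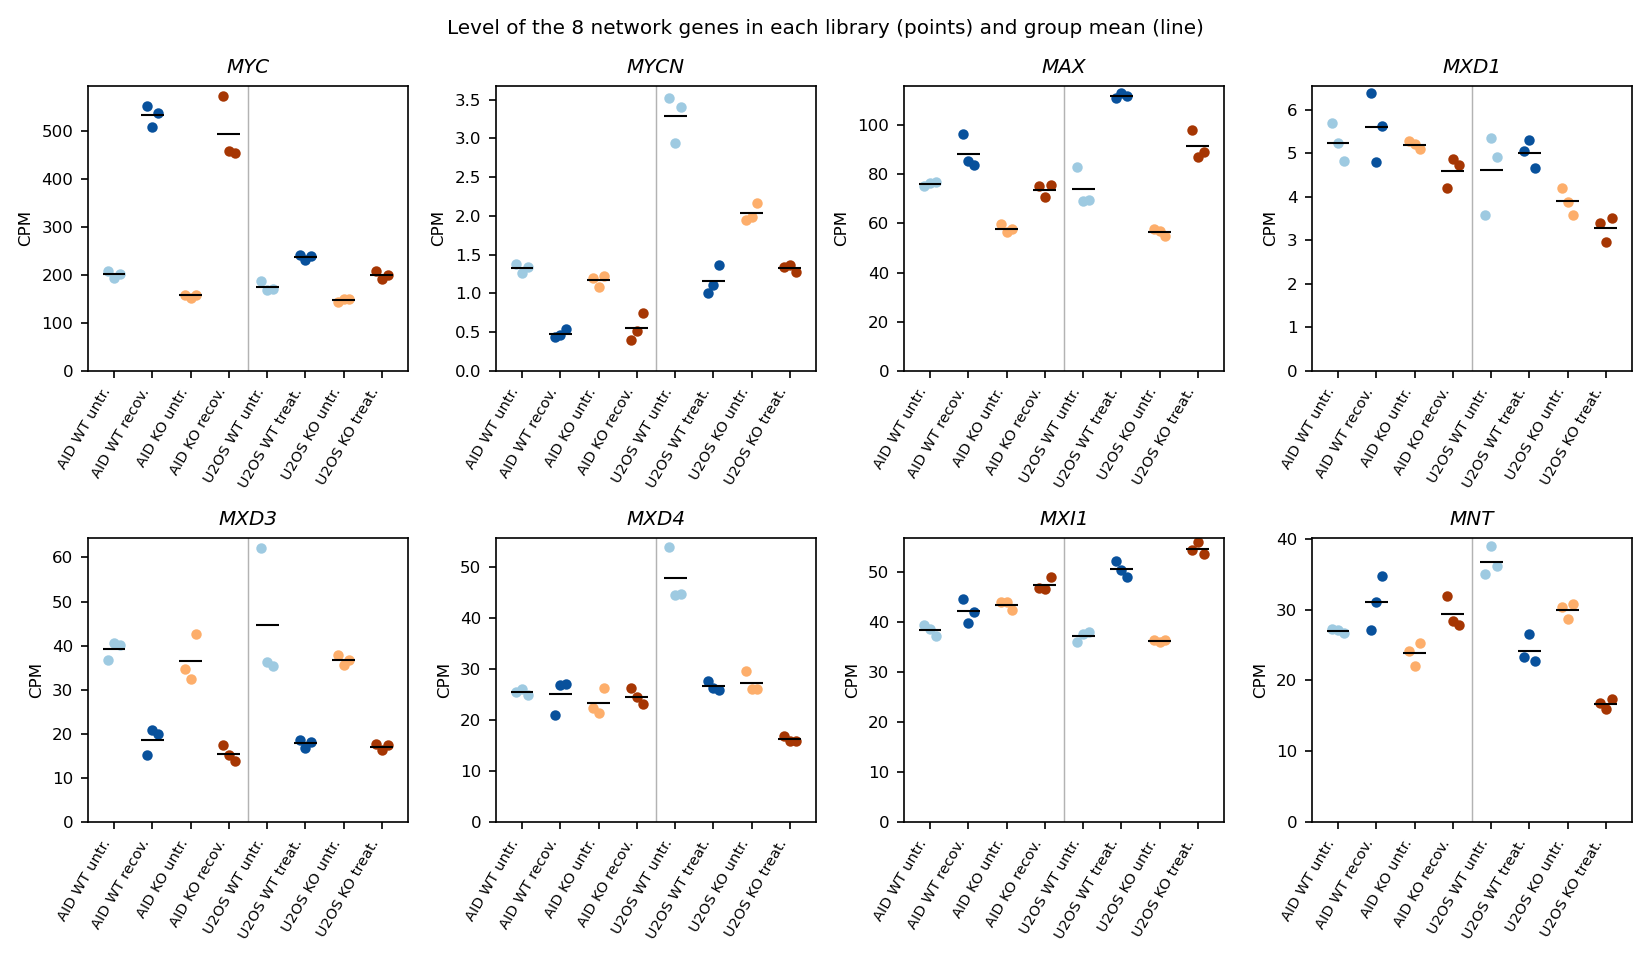
Level in CPM of MYC, MYCN, MAX, MXD1, MXD3, MXD4, MXI1 and MNT in each of the 24 libraries (points) with the group mean (line), 1 panel per gene with its own axis from 0 and a vertical line between AID-DIvA (AID) and U2OS. The 6 recovered AID-DIvA libraries hold the highest MYC levels, from 453 to 572 CPM, and MXD3 is below 21 CPM in all 12 recovered or treated libraries and above 32 CPM in the 12 untreated ones.

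MYCN (chromosome 2, 16080686 to 16087129, plus strand), the MYC relative best known from neural tissue and neuroblastoma, was near the bottom of the measured range, with 14 to 230 counts per library. WT AID-DIvA cells had 1.38, 1.26 and 1.34 CPM untreated and 0.436, 0.456 and 0.536 CPM recovered, and ID3-KO cells had 1.2, 1.08 and 1.22 CPM untreated and 0.398, 0.516 and 0.745 CPM recovered. It fell in both, by log2 differences of -1.45 (SE 0.177, adjusted p = 1.8e-05) and -1.05 (SE 0.213, adjusted p = 0.0035). WT U2OS cells had 3.52, 2.94 and 3.4 CPM untreated and 1, 1.11 and 1.37 CPM treated, a log2 difference of -1.49 (SE 0.165, adjusted p = 0.00022). ID3-KO U2OS cells had 1.95, 1.99 and 2.16 CPM untreated and 1.34, 1.36 and 1.28 CPM treated, a log2 difference of -0.62 (SE 0.144, adjusted p = 0.00059). MYCN thus moved opposite to MYC in all 4 responses, with no overlap between untreated and exposed libraries of a genotype. The antisense gene MYCNOS, which overlaps MYCN on the other strand, had group means of 0.0523 to 0.411 CPM and 0 to 27 counts per library.

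MAX (chromosome 14, 65472892 to 65569413, minus strand) is the shared partner without which neither MYC nor the MXD proteins bind E-boxes. WT AID-DIvA cells had 75.1, 76.3 and 76.9 CPM untreated and 96.2, 85.3 and 83.7 CPM recovered, and ID3-KO cells 59.6, 56.3 and 57.7 CPM untreated and 75.2, 70.6 and 75.5 CPM recovered. WT U2OS cells had 83.1, 69.2 and 69.6 CPM untreated and 111, 113 and 112 CPM treated, and ID3-KO U2OS cells 57.8, 56.9 and 54.9 CPM untreated and 97.9, 87.2 and 89.2 CPM treated. MAX rose in all 4 responses without overlap of the groups. The log2 differences were 0.24 (SE 0.0524, adjusted p = 0.0021) and 0.35 (SE 0.0626, adjusted p = 0.0018) after recovery in WT and ID3-KO cells, and 0.60 (SE 0.0929, adjusted p = 0.0013) and 0.70 (SE 0.0494, adjusted p = 1.8e-11) before it. The WT U2OS difference was 0.69 without untreated replicate 1. FNTB, which overlaps MAX on the opposite strand, had group means of 27.8 to 45.6 CPM, and counting the reverse strand alone gave MAX 1.108 to 1.174 times the count from either strand, with the same calls.

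MXD3 (chromosome 5, 176728462 to 176739758, minus strand) showed the largest drop of the repressor genes. It had 36.7, 40.6 and 40.2 CPM in untreated and 15.3, 20.9 and 19.9 CPM in recovered WT AID-DIvA cells, and 34.7, 32.4 and 42.6 CPM in untreated and 17.4, 15.2 and 14 CPM in recovered ID3-KO cells. In U2OS cells it had 62.1, 36.2 and 35.5 CPM in untreated and 18.6, 16.8 and 18.3 CPM in treated WT libraries, and 37.9, 35.7 and 36.7 CPM in untreated and 17.8, 16.3 and 17.4 CPM in treated ID3-KO libraries. The highest of all 24 values was that of the library that stands apart. MXD3 fell in all 4 responses, by log2 differences of -1.05 (SE 0.102, adjusted p = 8.5e-06) and -1.24 (SE 0.12, adjusted p = 3.9e-05) in WT and ID3-KO AID-DIvA cells, and of -1.32 (SE 0.218, adjusted p = 0.0017) and -1.10 (SE 0.0552, adjusted p = 3.9e-14) in U2OS cells. Without U2OS WT untreated replicate 1 the WT U2OS difference was -0.999. PRELID1 overlaps MXD3 on the opposite strand and RAB24 on the same strand. The forward strand of the MXD3 interval carried 5593 to 10475 counts, while MXD3's own reverse-strand count differed from the count used by less than 1.01-fold.

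MXI1 (chromosome 10, 111967363 to 112047123, plus strand) had the highest mean of the MXD genes per kilobase over the 24 libraries, and it moved the other way from MXD3. In untreated WT U2OS cells the MXD3 group mean was above that of MXI1 only through replicate 1, the library that stands apart. The values there were 12, 7.02 and 6.89 CPM per kilobase for MXD3 and 7.82, 8.17 and 8.27 for MXI1. In U2OS cells MXI1 had 36, 37.6 and 38.1 CPM untreated and 52.3, 50.5 and 49 CPM treated in WT, and 36.4, 36 and 36.5 CPM untreated and 54.4, 56 and 53.6 CPM treated in ID3-KO. The treated groups were clear of the untreated ones, with log2 differences of 0.44 (SE 0.0695, adjusted p = 0.0013) and 0.59 (SE 0.0464, adjusted p = 9.8e-11). After recovery the difference was small. WT AID-DIvA cells had 39.5, 38.6 and 37.3 CPM untreated and 44.7, 39.9 and 42 CPM recovered (log2 difference 0.16, SE 0.0521, adjusted p = 0.024), and ID3-KO cells 44, 44 and 42.5 CPM untreated and 46.8, 46.6 and 49 CPM recovered (log2 difference 0.13, adjusted p = 0.14). The WT call was lost without untreated replicate 2 (adjusted p = 0.071) or 3 (adjusted p = 0.11).

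MXD4 (chromosome 4, 2249159 to 2264021, minus strand) differed in treated U2OS cells but not detectably after recovery. WT U2OS cells had 53.8, 44.5 and 44.7 CPM untreated and 27.7, 26.3 and 25.8 CPM treated, and ID3-KO U2OS cells 29.6, 26 and 26.1 CPM untreated and 16.9, 15.9 and 15.9 CPM treated. Both drops, of -0.84 (SE 0.0994, adjusted p = 0.00031) and -0.74 (SE 0.0611, adjusted p = 2.5e-10) on the log2 scale, came without overlap, and the WT one was -0.75 without untreated replicate 1. In AID-DIvA cells untreated and recovered values overlapped, at 25.5, 26.1 and 24.9 against 21, 26.9 and 27.1 CPM in WT and 22.4, 21.4 and 26.3 against 26.3, 24.5 and 23.1 CPM in ID3-KO, with log2 differences of -0.01 (adjusted p = 0.95) and 0.07 (adjusted p = 0.57). MXD1 (chromosome 2, 70124820 to 70170077, plus strand), the founding MXD gene, was the scarcest of the family, between 2.95 and 6.37 CPM in all 24 libraries. It did not pass the test in any response, with log2 differences of 0.12 (adjusted p = 0.37) and -0.17 (adjusted p = 0.19) after recovery and of 0.12 (adjusted p = 0.58) and -0.24 (adjusted p = 0.063) before it. SNRNP27 overlaps MXD1 on the same strand at group means of 23.1 to 32.7 CPM, so that reads in the shared stretch could not be assigned by strand.

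MNT (chromosome 17, 2287354 to 2304412, minus strand), a MAX partner found in most cell types, turned in opposite directions at the 2 stages. WT U2OS cells had 35, 39 and 36.1 CPM untreated and 23.3, 26.5 and 22.7 CPM treated, and ID3-KO U2OS cells 30.4, 28.6 and 30.8 CPM untreated and 16.8, 16 and 17.4 CPM treated. MNT fell by 0.61 (SE 0.0887, adjusted p = 0.00093) and 0.83 (SE 0.057, adjusted p = 9.4e-12) on the log2 scale, with no overlap. WT AID-DIvA cells had 27.3, 27.1 and 26.7 CPM untreated and 27.1, 31 and 34.7 CPM recovered, and ID3-KO AID-DIvA cells 24.2, 22.1 and 25.3 CPM untreated and 31.9, 28.4 and 27.8 CPM recovered. The log2 differences were 0.22 (SE 0.0766, adjusted p = 0.031), with overlapping groups, and 0.30 (SE 0.0822, adjusted p = 0.017), without overlap. Both were fragile. The WT call was kept only when recovered replicate 1 was the library left out (adjusted p up to 0.15 otherwise), and the ID3-KO call was lost without untreated replicate 1 (adjusted p = 0.052) or 2 (adjusted p = 0.083).

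Counted together, 6 of 8 members passed the test in the WT AID-DIvA response, 4 higher and 2 lower, where 46.9% of all genes tested passed. In ID3-KO AID-DIvA cells 5 of 8 passed, 3 higher and 2 lower, against 40.1% of all genes. In U2OS cells 7 of 8 passed in each genotype, 3 higher and 4 lower, against 48.9% of all genes in WT and 69.9% in ID3-KO. Without U2OS WT untreated replicate 1 the WT U2OS count was again 7, while the share of all genes rose to 66.4%. In each response the share of members called was above that of all genes, which was itself large, and this difference was not tested. MYC, MYCN and MXD3 passed with a log2 difference over 1 in both AID-DIvA responses (3 of 8, against 7.38% and 7.46% of genes), MYCN and MXD3 in WT U2OS (18.6% of genes) and MXD3 in ID3-KO U2OS (20.3% of genes). Without U2OS WT untreated replicate 1, MXD3 in WT U2OS cells was just short of this size (-0.999).

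**Figure D2:**
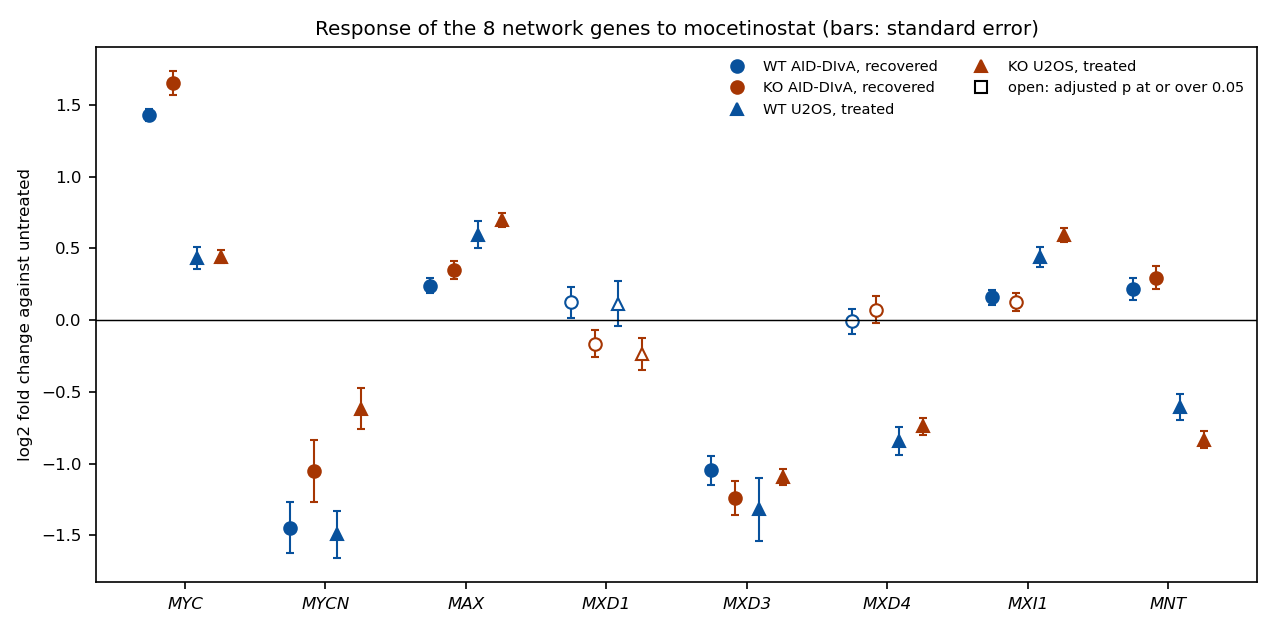
Log2 difference between exposed and untreated cells for each of the 8 members in the 4 treatment responses, with bars of 1 standard error and filled points where the adjusted p is under 0.05. MYC sits at 1.43 and 1.65 in AID-DIvA cells and at 0.44 in both U2OS genotypes, while MNT and MXD4 pass the test below 0 in both U2OS responses. In both AID-DIvA responses MNT passes above 0 and MXD4 does not pass.

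Per kilobase, MYC took up most of the summed level of the 7 MAX partners among the members (MYC, MYCN, 4 MXD genes and MNT). Further MAX partners, such as MYCL and MGA, were not part of this sum, and the shares hold for these 7 genes only. The share of MYC is given below. MYC made up 73.6% ± 0.928 (SD, n = 3) in untreated and 89.4% ± 0.679 in recovered WT AID-DIvA cells, and 68.7% ± 0.927 and 88.6% ± 1.05 in ID3-KO cells. In U2OS cells it was 66.4% ± 1.13 untreated and 78.1% ± 0.596 treated in WT, and 67.5% ± 1.03 and 76.5% ± 0.606 in ID3-KO. The exposed libraries of each pair lay above the untreated ones. The ratio of MYC to MAX per kilobase, in contrast, went from 3.9 ± 0.176 to 8.92 ± 0.526 and from 4.01 ± 0.0622 to 9.9 ± 1.22 (WT and ID3-KO AID-DIvA), but from 3.52 ± 0.163 to 3.14 ± 0.111 and from 3.86 ± 0.165 to 3.24 ± 0.0832 in U2OS cells, where MAX rose more than MYC.

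Of the summed level of the MXD genes, the share of MXD3 was lower and that of MXI1 higher in exposed cells. The 4 MXD genes summed to 20.4 ± 0.345 CPM per kilobase in untreated and 17.2 ± 0.519 in recovered WT AID-DIvA cells, and to 20.7 ± 1.21 and 17.5 ± 0.352 CPM per kilobase in ID3-KO cells. MXD3 made up 37.3% ± 1.8 of that sum untreated and 21% ± 2.91 recovered in WT, and 34.2% ± 2.95 and 17.2% ± 1.63 in ID3-KO. Its share in U2OS cells was 35.1% ± 6.79 untreated and 18.3% ± 0.866 treated in WT, and 36.6% ± 0.258 and 18.5% ± 0.848 in ID3-KO. MXI1 went from 40.9% ± 1.29 to 53.3% ± 4.37 and from 45.8% ± 3.48 to 58.8% ± 2.33 in AID-DIvA cells, and from 33.9% ± 5.2 to 57.7% ± 0.528 and from 40.4% ± 1.01 to 65.9% ± 1.36 in U2OS cells. The exposed and untreated libraries did not overlap for either gene in any of the 4 pairs, and these shares were not tested. As parts of 1 sum, the share of 1 gene also rises when another falls. In AID-DIvA cells MXD3 went from 7.6 to 3.63 (WT) and 7.09 to 3.02 CPM per kilobase (ID3-KO). MXI1 itself went only from 8.34 to 9.16 and from 9.44 to 10.3 CPM per kilobase. The wide SDs in untreated WT U2OS cells come with replicate 1, where MXD3 took 42.9% and MXI1 27.9%.

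**Figure D3:**
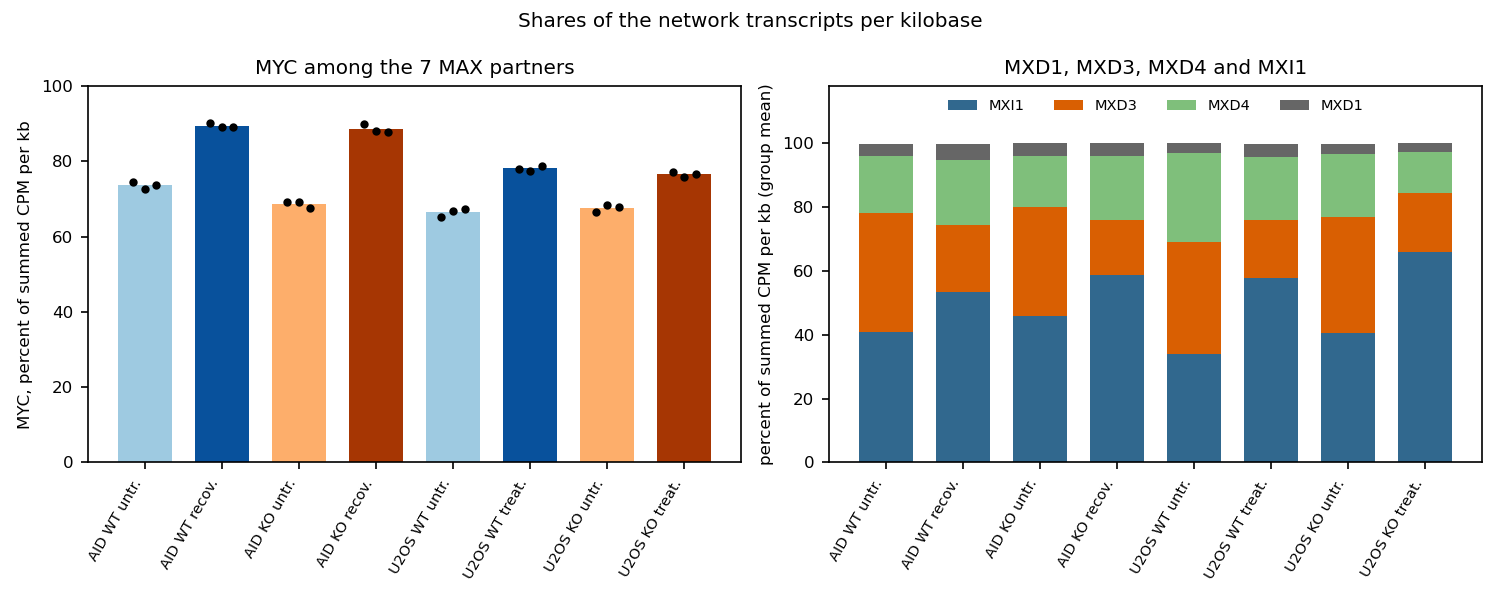
Left, MYC as a percent of the summed level per kilobase of the 7 MAX partners among the members in each library (points) with the group mean (bar). Right, mean percent of the 4 MXD genes' summed level held by each MXD gene in the 8 groups. MYC ranges from 65.1% to 74.4% in untreated libraries and from 75.9% to 90.2% in recovered or treated ones, and MXI1 widens in each exposed group while MXD3 shrinks.

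The comparison of untreated ID3-KO with untreated WT cells asks how the network stood before any drug. In AID-DIvA cells 4 of 8 members passed the test, 3 lower and 1 higher, against 36.7% of all genes. MYC was lower by 0.37 (log2 difference -0.37, SE 0.0452, adjusted p = 9e-06) and MAX likewise (-0.41, SE 0.0458, adjusted p = 3.3e-06), both with no overlap between the genotypes. MNT (-0.19, adjusted p = 0.022) and MXI1 (0.17, adjusted p = 0.011) passed by less. MNT lost its call in 5 of the 6 fits that left out 1 library (adjusted p up to 0.13), and MXI1 without WT untreated replicate 3 (adjusted p = 0.066). MXD3 and MXD4 did not pass with all libraries (-0.12, adjusted p = 0.37, and -0.14, adjusted p = 0.16), but did without ID3-KO untreated replicate 3 (-0.26, adjusted p = 4.5e-05, and -0.25, adjusted p = 0.00014). MYCN (-0.20, adjusted p = 0.3) and MXD1 (-0.02) did not pass.

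In untreated U2OS cells 4 of 8 members passed, all lower in ID3-KO cells, where 15.2% of all genes passed. They were MXD4 (log2 difference -0.82, SE 0.103, adjusted p = 0.0022), MYCN (-0.70, SE 0.13, adjusted p = 0.011), MAX (-0.40, SE 0.0924, adjusted p = 0.027) and MNT (-0.30, SE 0.0748, adjusted p = 0.033). MXD4 was the largest of these, with 44.5 CPM or more in WT and 29.6 CPM or less in ID3-KO libraries. MYC was -0.26 (SE 0.0745, adjusted p = 0.057), although its ranges, 168 to 187 CPM in WT and 144 to 150 CPM in ID3-KO, did not overlap. Without U2OS WT untreated replicate 1 the count was 6 of 8, adding MYC (-0.20, adjusted p = 7.3e-06) and MXD1 (-0.41, adjusted p = 0.0025), while the share of all genes rose to 41.1%. MXD4 was then -0.72, MYCN -0.63, MNT -0.33 and MAX -0.30, all still called. With an ID3-KO untreated library left out it was 1 (without replicate 1 or 2) or 2 (without replicate 3), and MAX and MNT lost their calls in all 3 of these fits.

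Whether the treatment response differed between genotypes was tested as an interaction. In AID-DIvA cells 0 of the 8 members passed in edgeR or DESeq2, where 1.21% of all genes did, and 1 had an unadjusted p under 0.05. For MYC the estimate was larger in ID3-KO cells by 0.23, but did not pass (SE 0.0943, adjusted p = 0.34). It ranged from 0.12 to 0.30 over the 12 fits that left out 1 library. The untreated MYC level was lower in ID3-KO cells (group mean 157 against 201 CPM), and the recovered group mean was not higher (494 against 532 CPM). In U2OS cells 1 member, MYCN, passed, against 2.15% of all genes. Its drop was smaller in ID3-KO than in WT cells by 0.88 (SE 0.199, adjusted p = 0.036), on untreated levels that were themselves lower in ID3-KO. The call was lost in 9 of 12 fits that left out 1 library (adjusted p up to 0.11) and held without the library that stands apart (0.81, adjusted p = 0.013). In the fit without that library the share of all genes that passed rose to 9.03%.

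The responses after and before recovery were set against each other over both genotypes. Here too, cell line label and stage coincide. Of 8 members 5 differed, where 57.5% of all genes did. MYC rose more in recovered AID-DIvA cells than in treated U2OS cells by 1.11 (SE 0.0719, adjusted p = 6.9e-13), and MNT and MXD4, which fell in U2OS only, differed by 0.98 (adjusted p = 1.6e-10) and 0.83 (adjusted p = 3.9e-08). MAX and MXI1 rose more in treated U2OS cells, by differences of -0.35 (adjusted p = 0.00011) and -0.37 (adjusted p = 2e-06). For MXD3, MYCN and MXD1 the differences of 0.07, -0.20 and 0.04 did not pass the test.

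A list of 20 further genes covers the rest of the network and the proteins that control or assist MYC. In WT AID-DIvA cells 4 of the 20 were called higher and 8 lower (median log2 difference -0.12), in ID3-KO AID-DIvA cells 2 and 6 (-0.09), in WT U2OS 1 and 4 (-0.06), and in ID3-KO U2OS 5 and 10 (-0.10). The shares of all genes called higher and lower were 23.9% and 23%, 20.2% and 19.9%, 26% and 22.9%, and 35.8% and 34%. Without U2OS WT untreated replicate 1 the WT U2OS counts became 8 higher and 11 lower, and without AID-DIvA WT untreated replicate 1 the 8 lower of that response became 5. In the first of these fits 7594 of 22423 genes tested were called higher and 7294 lower. In ID3-KO U2OS cells the 5 higher became 3 without untreated replicate 1 or treated replicate 3, and 3 with DESeq2. SKP2, a ubiquitin ligase subunit that acts on MYC, and AURKA, a mitotic kinase that stabilises MYCN protein, fell in all 4 responses. AURKA had log2 differences of -0.73, -1.10, -0.68 and -0.79 in WT and ID3-KO AID-DIvA and WT and ID3-KO U2OS cells. TRIB1, a pseudokinase scaffold for protein degradation, rose in all 4, by 0.71, 0.99, 1.39 and 1.38. CIP2A, an inhibitor of the phosphatase PP2A that stabilises MYC, fell in the AID-DIvA responses (-0.60, adjusted p = 8.7e-06, and -0.93, adjusted p = 0.002). SIN3A, the corepressor that MXD proteins recruit, had log2 differences of -0.19 (adjusted p = 0.0017), -0.14 (adjusted p = 0.06), -0.36 (adjusted p = 0.077) and -0.44 (adjusted p = 4e-09).

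MYCL, the remaining MYC gene, differed by genotype in its untreated level and in its response. WT AID-DIvA cells had 9.63, 8.96 and 8.83 CPM untreated and 3.33, 3.88 and 3.44 CPM recovered, and ID3-KO cells 4.62, 4.54 and 4.69 CPM untreated and 3.9, 3.49 and 3.66 CPM recovered. WT U2OS cells had 13.6, 13.4 and 12.6 CPM untreated and 14.3, 15.6 and 15.5 CPM treated, and ID3-KO U2OS cells 5.33, 5.47 and 5.87 CPM untreated and 14.9, 14.3 and 14.9 CPM treated. The low untreated level of ID3-KO cells was common to both lines (log2 differences -0.999, adjusted p = 3.8e-08, and -1.25, adjusted p = 0.00016). With treatment the ID3-KO U2OS level reached that of WT. The responses were -1.35 and -0.33 in WT and ID3-KO AID-DIvA cells and 0.20 (adjusted p = 0.077) and 1.41 (adjusted p = 6.1e-14) in WT and ID3-KO U2OS cells, and the genotypes differed by 1.02 (adjusted p = 0.00073) and 1.21 (adjusted p = 1.5e-05).

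Among the 20 genes, 2 were higher and 6 lower in untreated ID3-KO AID-DIvA cells, where 18.6% of all genes were called higher and 18.1% lower. In untreated U2OS cells 2 were higher and 2 lower in ID3-KO, against 6.56% and 8.63% of all genes. USP28, a deubiquitinase that protects MYC protein from degradation, had the largest increase of the list, by 1.52 (SE 0.0482, adjusted p = 2.3e-12) and 1.48 (SE 0.128, adjusted p = 0.00041). Its untreated levels were 47, 44.3 and 44.2 CPM in WT and 134, 135 and 122 CPM in ID3-KO AID-DIvA cells, and 32.8, 45.3 and 44.9 CPM and 113, 117 and 116 CPM in U2OS cells. No ID3-KO library came near the WT range in either line. CIP2A was higher by 0.27 (adjusted p = 0.00037) and 0.47 (adjusted p = 0.0065). MLXIPL, the glucose-responsive partner of MLX, was lower by -1.71 (adjusted p = 0.00016) and -1.58 (adjusted p = 0.025) at group means under 1.1 CPM. Without U2OS WT untreated replicate 1 the U2OS counts were 6 higher and 5 lower, and without any one of the U2OS ID3-KO untreated libraries the number lower was 1. In the fit without that WT library 4304 of 20973 genes tested were called higher and 4323 lower.

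**Figure D4:**
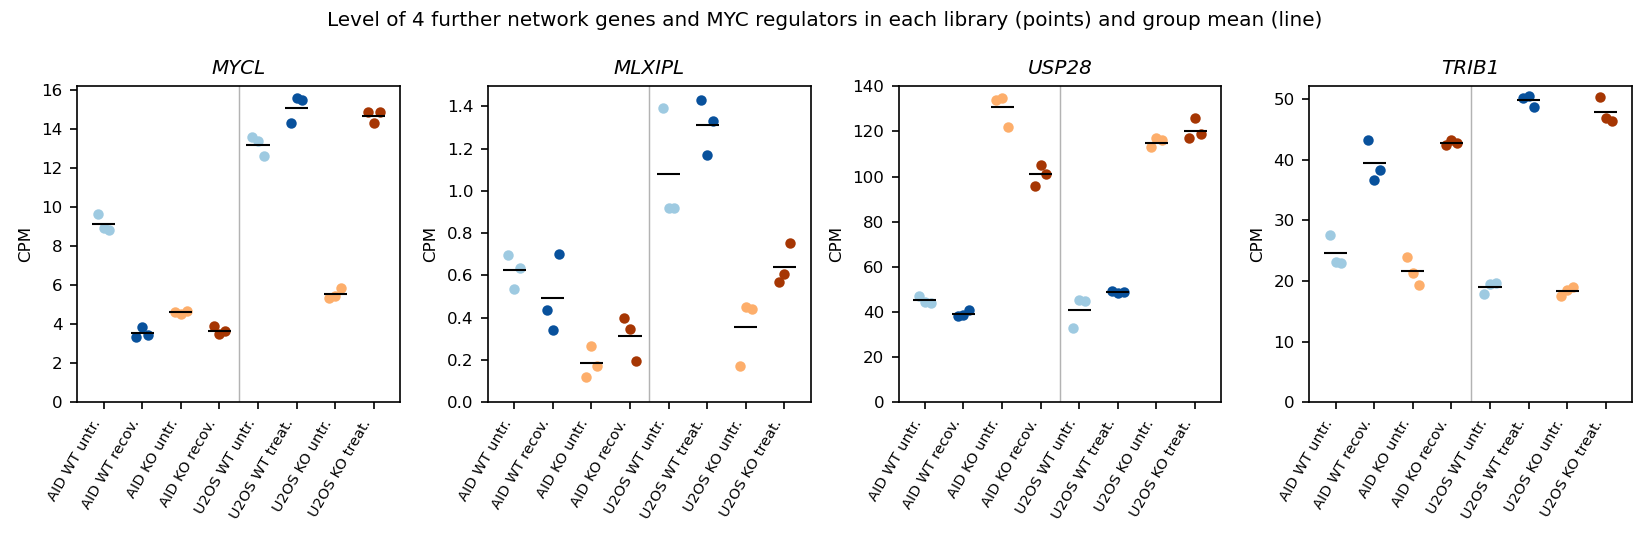
Level in CPM of MYCL, MLXIPL, USP28 and TRIB1 in each library (points) with the group mean (line), each panel with its own axis from 0, AID standing for AID-DIvA. MYCL lies below 5.9 CPM in every untreated ID3-KO library and above 8.8 CPM in every untreated WT one, and USP28 lies above 95 CPM in all ID3-KO libraries and below 50 CPM in all WT ones.

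The 60 genes widely described as MYC targets leaned upwards after recovery. In WT AID-DIvA cells 46 of the 59 tested were called higher and 2 lower (median log2 difference 0.24, against 0 over all genes), where 23.9% and 23% of all genes were called higher and lower, and in ID3-KO cells 42 of 59 were called higher and 1 lower (median 0.29, against -0.02), where the shares of all genes were 20.2% and 19.9%. In treated U2OS cells they leaned the other way. In WT U2OS cells 4 of 60 were called higher and 20 lower (median -0.17), and in ID3-KO U2OS cells 14 of 59 were called higher and 32 lower (median -0.14), where the median over all genes was 0.01 and 0.00. All genes were called higher and lower at shares of 26% and 22.9% in WT and 35.8% and 34% in ID3-KO U2OS cells. The 2 stages differed in the target genes themselves, with 47 of 60 responding more positively after recovery and 1 less (median 0.40), against 27.9% and 29.6% of all genes. The WT U2OS counts depended on single libraries. They were 12 higher and 31 lower without U2OS WT untreated replicate 1, 2 higher and 12 lower without treated replicate 1, and 2 higher and 13 lower without treated replicate 3, and the number higher was also 2 without treated replicate 2. The share of all genes called in either direction was 48.9% with all libraries and 66.4% without untreated replicate 1. It was 35.9%, 36.4% and 36.2% without treated replicates 1, 2 and 3.

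HK2, the hexokinase of glycolysis whose E-boxes are printed above, was the target gene that rose most after recovery. It had 39.5, 38.2 and 39.3 CPM in untreated and 93.7, 77.7 and 80.7 CPM in recovered WT AID-DIvA cells, and 34, 32.3 and 30.2 CPM in untreated and 80, 69.4 and 73.1 CPM in recovered ID3-KO cells. Recovered and untreated libraries were far apart, with log2 differences of 1.13 (SE 0.061, adjusted p = 9.4e-09) and 1.20 (SE 0.0714, adjusted p = 1.7e-06). RRP12, a ribosome assembly factor, rose in all 4 responses, by 0.78, 0.84, 0.83 and 0.72. ODC1, the first enzyme of polyamine synthesis and an E-box gene, had 374, 329 and 331 CPM in untreated and 487, 499 and 537 CPM in treated WT U2OS cells (log2 difference 0.56, SE 0.0846, adjusted p = 0.0011). ID3-KO U2OS cells moved the same way, from 450, 456 and 456 to 631, 651 and 634 CPM. RRP9, another ribosome assembly factor, rose by 0.58 in ID3-KO U2OS cells (adjusted p = 1.5e-06). Its rise was not limited to that genotype. WT U2OS cells went from 68.7, 51.3 and 47.1 to 78, 78.8 and 81.3 CPM. Group means rose from 51.7 to 69.2 CPM in WT and from 48.8 to 71.4 CPM in ID3-KO AID-DIvA cells.

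Other target genes fell in at least 1 response. CDK4, the cyclin D kinase, had 227, 226 and 223 CPM in untreated and 171, 175 and 171 CPM in recovered WT AID-DIvA cells, and fell by 0.37 (adjusted p = 5.7e-06) on the log2 scale. In ID3-KO AID-DIvA cells it had 197, 201 and 208 CPM untreated and 202, 192 and 192 CPM recovered (log2 difference -0.05, adjusted p = 0.49), and the genotypes differed (0.32, adjusted p = 0.021). In WT U2OS cells it fell from 267, 226 and 213 to 135, 133 and 135 CPM (log2 difference -0.81, adjusted p = 0.00037). ID3-KO U2OS cells showed the same drop, from 225, 222 and 226 to 138, 128 and 138 CPM. LDHA, lactate dehydrogenase A, was lower after recovery in WT (log2 difference -0.18, adjusted p = 0.0028) and ID3-KO AID-DIvA cells (-0.24, adjusted p = 0.015). MCM5, a subunit of the replicative helicase, had the largest drop of the list. It had 285, 272 and 259 CPM in untreated and 91.5, 89.2 and 86.8 CPM in treated WT U2OS cells, with log2 differences of -1.61 (adjusted p = 3.6e-06) in WT and -1.67 (adjusted p = 1.3e-18) in ID3-KO U2OS cells. In recovered AID-DIvA cells it stood at 261 to 306 CPM, above the untreated 220 to 256 CPM. PPRC1, a coactivator of genes for mitochondria, fell by 0.91 (adjusted p = 2.2e-14) on the log2 scale in ID3-KO U2OS cells. WT U2OS cells also fell, from 109, 132 and 127 to 71.2, 75.9 and 74.5 CPM. After recovery PPRC1 rose with MYC in WT (0.33, adjusted p = 2.5e-05) and ID3-KO AID-DIvA cells (0.39, adjusted p = 0.0012).

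**Figure D5:**
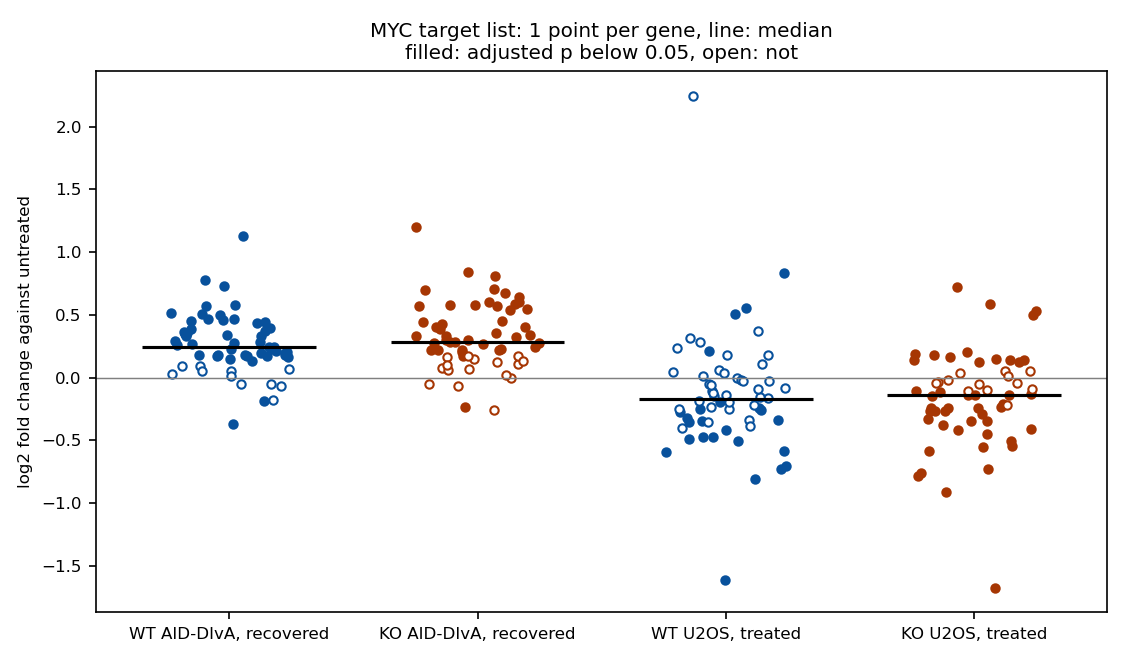
Log2 differences of the MYC target genes tested in each of the 4 treatment responses (1 point per gene), with a black line at the median of the list and a grey line at 0. The list's median is 0.24 and 0.29 after recovery and -0.17 and -0.14 under treatment.

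In untreated cells the target list showed no common lean between the lines. In AID-DIvA cells 7 of 59 were higher and 23 lower in ID3-KO (median -0.09), where 18.6% of all genes were called higher and 18.1% lower. In U2OS cells 6 of 59 were higher and 0 lower (median 0.04) in edgeR and DESeq2, against 6.56% and 8.63% of all genes, and 14 higher and 2 lower had an unadjusted p under 0.05. The U2OS counts became 32 higher and 4 lower without WT untreated replicate 1, and 1 higher without any other single library of that comparison. Without WT untreated replicate 1, 4304 of 20973 genes tested were called higher and 4323 lower. Without any other single library, 6.02% to 10.6% of all genes were called in either direction. The AID-DIvA count higher was 4 without WT untreated replicate 1 or 2.

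Genes whose level followed each member most closely over the 24 libraries were found by Pearson's r of log2 CPM among genes with a mean of at least 5 CPM. The libraries share lines, stages and replicate groups, so the coefficients only describe likeness. MYC was most like FGF1 (r = 0.987), GPSM3 (0.983) and RAP1GAP2 (0.971). MYCN was most like CXCL14 (0.956), TP53TG1 (0.934) and PHF1 (0.923), and MAX like RBFOX3 (0.969), MAOB (0.965) and TPD52L1 (0.963). Coefficients were thus high for all members that moved with treatment, and lowest for MXD1, with NEGR1 (0.845), SMG8 (0.835) and VPS41 (0.834). MXD3 was closest to DCTN3 (0.959), CKAP4 (0.954) and BCL7C (0.948), and MXI1 to NDFIP2 (0.962), NIPAL1 (0.957) and AP1S3 (0.946). MXD4 was closest to PLA2G6 (0.956), DDR1 (0.951) and OSBPL5 (0.95), and MNT to C19orf54 (0.957), LPIN3 (0.951) and LRSAM1 (0.949). No member was among another member's 3 closest genes. MYCN and MXD1 could not be, since their means of 1.42 and 4.68 CPM were under the 5 CPM minimum.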

How the data were processed

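Total RNA libraries (stranded, paired-end) were sequenced from 24 cultures in 8 groups of 3. The authors aligned reads with STAR to hg19 (GRCh37) and deposited featureCounts gene counts for either strand and for each strand, with RPKM, TPM and similar columns that were not used here. Tool versions were not given in the sources used here. Either-strand counts, as deposited, were tested with edgeR 4.0.16 (R 4.3.3): expression filter by group, TMM scaling, robust quasi-likelihood fit, each comparison on its own 6 libraries (12 for interactions, 24 for the difference between stages), Benjamini-Hochberg adjustment over all genes tested, and a call at an adjusted p under 0.05. The standard error is the log2 difference divided by the root of F. Levels are CPM with TMM over all 24 libraries. Alternatives were DESeq2 1.42.0, its size factors in edgeR, no filter, reverse-strand counts, other scaling of levels, 4 groups in 1 fit, a fold threshold, a replicate block and each library left out. The fits were tested on simulated data. Replicate numbers did not pair samples (correlations of same-numbered samples' deviations from -0.164 to 0.118).

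The members and lists were chosen with earlier results of these data known. Named were all members, any of the 20 network genes, the 2 highest and 2 lowest target genes past the test in a treatment response (mean of at least 1 CPM), the 3 genes most like each member, ID3 and genes overlapping a member. Groups followed titles. Sequences came from RefSeq windows (GRCh38.p14) matched to GRCh37.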

Additional observations from a re-analysis of the deposited data

Results flagged for a closer look

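Treatment responses that differed between genotypes by the interaction test were those of 5 genes. In U2OS cells they were MYCN (0.88), MYCL (1.21) and NOP56 (0.37), a ribosome assembly gene chosen here after its values were seen. In AID-DIvA cells they were MYCL (1.02), AURKA (-0.36) and CDK4 (0.32). A positive value means that the log2 difference was higher in ID3-KO cells. Tested were 8 members, 20 network genes and 59 (AID-DIvA) or 60 (U2OS) target genes. Of all genes, 1.21% passed in AID-DIvA and 2.15% in U2OS cells. For the target list the shares were 1.69% and 1.67%, near those of all genes. The NOP56 call was lost in each fit without a U2OS library other than WT untreated replicates, and that of CDK4, among other fits, without any one of the AID-DIvA WT untreated replicates. Both calls were also lost with the replicate number as a block. The AURKA call was lost without AID-DIvA WT untreated replicate 1 or 3.

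Responses that differed between recovered AID-DIvA and treated U2OS cells were those of the members MYC (1.11), MNT (0.98), MXD4 (0.83), MXI1 (-0.37) and MAX (-0.35). In the list of further network genes they were MYCL (-1.64), CIP2A (-0.69), ZBTB17 (0.63), WDR5 (0.58), TRIB1 (-0.54), USP28 (-0.43), SIN3A (0.24), MLXIP (0.20) and AURKA (-0.18). Positive values are log2 responses that were higher after recovery. MYCL thus had the largest difference between stages of all of these, opposite in sign to that of MYC. Of the 20 further genes, 20% differed upwards and 25% downwards, where 27.9% and 29.6% of all genes did. Of the 8 members 5 differed, where 57.5% of all genes did.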

How the results depend on the processing

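The number of members called was the same to within 1.5 times in all 9 comparisons with DESeq2, its size factors, no filter on low counts and reverse-strand counts. It was so too in the 6 fits with 4 groups of a line together. Of the list counts, however, 9 moved by more than that or from 0 in those fits, and 15 did not. Target genes called higher went from 4 to 10 in the WT U2OS response and from 14 to 9 in the ID3-KO U2OS response. Between untreated genotypes they went from 6 to 14 in U2OS and from 7 to 4 in AID-DIvA cells. No log2 difference that was called changed sign. With a log2 difference over 1 also required, the counts were 3 and 3 in WT and ID3-KO AID-DIvA cells, 2 and 1 in WT and ID3-KO U2OS cells, 0 in both untreated comparisons and both interactions, and 1 for the difference between stages. With 1 library left out, the counts ranged from 2 to 6 in untreated AID-DIvA, from 1 to 6 in untreated U2OS cells and from 0 to 1 for the U2OS interaction. The replicate block moved the U2OS interaction count to 0 (MYCN 0.89, adjusted p = 0.055) and ended the MNT call in untreated U2OS cells (adjusted p = 0.095), and changed no other call of a member. It also brought the target genes with an interaction to 0 in each line, and in untreated U2OS cells the target genes called higher to 1 and the network genes called lower to 1. In that comparison MYC was called by DESeq2 (adjusted p = 0.043), on reverse-strand counts (adjusted p = 0.047) and in the fit of 4 groups (adjusted p = 0.0066). MNT was not called without the filter (adjusted p = 0.077). The fit of 4 groups also ended the MNT calls in WT AID-DIvA cells (adjusted p = 0.06) and in untreated AID-DIvA cells (adjusted p = 0.099). Group levels in CPM moved by over 1 SD in 25 of 64 cases without TMM (all levels by -5.87% to 8.71%). They did so in 28 with TMM within a line (-5.13% to 5.39%) and in 24 with reverse-strand counts (-9.51% to 26.3%). Depth limits MYCN most, at 14 to 230 counts per library. MXD1 was called in the ID3-KO U2OS response without untreated replicate 3 (-0.29, adjusted p = 0.041).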
